A study of Mus musculus with 37 samples.

Results

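Transcripts of 7 chemokine receptor genes, Cx3cr1, Ccr1, Ccr2, Ccr7, Ccrl2, Cxcr1 and Cxcr4, were followed in bone marrow-derived macrophages (BMDMs) of 2 genotypes after stimulation through TLR4. They are 7 of the 24016 genes in the table, found there by symbol. The set was selected on the RNA levels measured in these same libraries, Cx3cr1 for its difference between the genotypes, so every value below is a description and no difference between conditions was tested. At all 4 times, Cx3cr1 mRNA was at least 1.5-fold higher in Arntl-/- than in WT macrophages, whereas Ccr1 was higher by less than 1.5-fold. After stimulation, Ccrl2 rose by 6 h and Cxcr4 by 24 h in both genotypes, and Cx3cr1 also rose in both at 24 h. Ccr7, Ccr2 and Cxcr1 stayed under the filter on low values.

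Chemokine receptors are receptors with several membrane-spanning helices that couple to inhibitory G proteins, and their ligands are small secreted proteins that direct leukocytes through tissue. In cells of the monocyte lineage, CCR2 is known for the exit of Ly6C-high monocytes from bone marrow, CX3CR1, the receptor of fractalkine, marks patrolling monocytes and many tissue macrophages, and CXCR4 holds cells near stromal sources of CXCL12. CCR7 guides maturing dendritic cells to lymph nodes, CXCR1 binds CXC chemokines that attract neutrophils, and CCRL2 is an atypical receptor that presents chemerin without classical G protein signalling.

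BMDMs were grown with M-CSF for 6 days from the marrow of male mice aged 6 to 9 weeks. WT cells came from C57BL/6J mice, described in the study both as purchased animals and as littermates, and Arntl-/- cells from mice on a C57BL/6 background that lack Arntl, the gene of the clock protein Bmal1, in every cell type. Cells of both genotypes received KLA (Kdo2-lipid A, a defined part of bacterial lipopolysaccharide that activates TLR4) for 0, 6, 24 or 48 h. PolyA RNA of each of these 8 conditions was sequenced in 1 library, so no difference has a replicate check, and whether animals or cultures were pooled was not given in the sources used here. The intervals below are exact 95% intervals for the counting of reads, and cover neither cultures, mice nor PCR copies of 1 molecule. In bulk RNA, fewer cells expressing a gene and less of its RNA per cell cannot be told apart.

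Levels are given as scaled FPKM, that is, the deposited FPKM (per 10000000 reads and per kb of exon) divided by a size factor for each library. The libraries held between 8587560 and 27036783 reads on genes, with both 48 h libraries shallowest and the WT 6 h library deepest. Arntl, the deleted gene, was read at 34.3, 32.3, 35.6 and 38.7 scaled FPKM in WT cells at 0, 6, 24 and 48 h, and at 13.9, 11.3, 18.8 and 20.2 in Arntl-/- cells. Every Arntl-/- library lay below every WT library for it, and reads remained in each. The table gives 1 total per gene, so the deleted part could not be looked at apart. All 11 macrophage markers found in the table passed the filter on low values in these cells, among them Lyz2 and Itgam, and none of the 11 differed 1.5-fold between the genotypes at any time. Of all genes that passed, 3.82, 2.32, 4.50 and 6.99% were at least 1.5-fold higher in Arntl-/- cells at the 4 times. At least 1.5-fold lower were 2.16, 3.02, 3.29 and 5.98%. None of 11 is near those shares and does not show that the cultures were alike.

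The upstream sequences of 3 of the receptor genes are shown because Cx3cr1 and Ccr1 were higher in Arntl-/- cells at every time and Cxcr4 had the largest rise after KLA among the 4 receptors that passed the filter on low values. Each is the 250 bases before the transcript start in the deposited table, read from the mm9 genome and printed 5′ to 3′ on the strand of the gene. Capitals mark matches, on either strand, to 6 motifs: the E-box CACGTG of the clock proteins, the RevErb half-site AGGTCA, the PU.1 core GAGGAA, the AP-1 motif TGANTCA, the NF-kB motif and the TATA box TATAAA. The Cx3cr1 window (chr9:119977415-119977664, minus strand) held none of them.
Cx3cr1: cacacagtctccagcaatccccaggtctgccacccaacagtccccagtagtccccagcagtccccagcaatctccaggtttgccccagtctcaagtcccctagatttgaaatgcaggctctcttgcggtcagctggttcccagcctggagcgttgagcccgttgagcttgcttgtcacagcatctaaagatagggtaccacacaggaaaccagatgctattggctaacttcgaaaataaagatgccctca
Ccr1 (chr9:123883526-123883775, minus strand): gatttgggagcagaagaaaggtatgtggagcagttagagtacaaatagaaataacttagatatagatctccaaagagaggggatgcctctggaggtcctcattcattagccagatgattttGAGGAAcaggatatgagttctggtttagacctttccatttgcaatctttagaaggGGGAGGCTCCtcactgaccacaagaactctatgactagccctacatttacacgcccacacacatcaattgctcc
Cxcr4 (chr1:130488877-130489126, minus strand): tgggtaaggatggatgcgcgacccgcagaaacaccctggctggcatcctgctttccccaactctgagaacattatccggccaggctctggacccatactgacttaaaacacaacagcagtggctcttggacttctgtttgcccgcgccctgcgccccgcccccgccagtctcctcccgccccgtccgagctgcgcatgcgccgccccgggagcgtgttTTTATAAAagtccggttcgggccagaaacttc

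In the Ccr1 window, the PU.1 core stood 124 to 129 bases and the NF-kB motif 65 to 74 bases before the start. The Cxcr4 window held the TATA box on both strands in 1 overlapping run, 25 to 32 bases before the start. Of the windows not shown, that of Ccr7 held a PU.1 core and an AP-1 motif, and those of Ccr2, Ccrl2 and Cxcr1 held none of the 6. Neither the E-box nor the RevErb half-site was found in any of the 7 windows. Over the windows of 23954 genes, 6.58% held the E-box, 12.4% the RevErb half-site, 22.7% the PU.1 core, 6.15% the AP-1 motif, 7.81% the NF-kB motif and 12.0% the TATA box. These are matches of letters within 250 bases and say nothing about binding there or elsewhere.

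Cx3cr1 (NM_009987, 3749 bases of exon, chr9:119957801-119977414 in mm9, minus strand) was measured at 51.5, 60.8, 111 and 65.6 scaled FPKM in WT cells at 0, 6, 24 and 48 h, from 409, 1113, 700 and 328 reads. The Arntl-/- cells gave 102, 172, 233 and 266 scaled FPKM, from 1192, 1635, 2191 and 1279 reads. At each time the Arntl-/- library was the higher one, but the groups overlapped, since the untreated Arntl-/- library lay below the WT library at 24 h. In order of time, the ratio of Arntl-/- to WT was 1.98 (counting interval 1.77 to 2.22), 2.82 (2.62 to 3.05), 2.09 (1.92 to 2.28) and 4.05 (3.58 to 4.59). It was therefore about as large before KLA as after 24 h, and largest at 48 h. On the log2 scale with a pseudocount of 0.1, used for calls here, the 4 differences were 0.98, 1.496, 1.065 and 2.02.

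The order of the 8 Cx3cr1 levels ran from WT at 0 h through WT at 6 h, WT at 48 h, Arntl-/- at 0 h, WT at 24 h and Arntl-/- at 6 h to Arntl-/- at 24 and 48 h. Among neighbours in that order, WT at 6 and 48 h (ratio 1.08, 0.951 to 1.22) and the pair of untreated Arntl-/- and WT at 24 h (1.095, 0.996 to 1.203) did not differ beyond counting error. The plot of all levels shows the 2 genotypes side by side for each receptor.

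**Figure D1:**
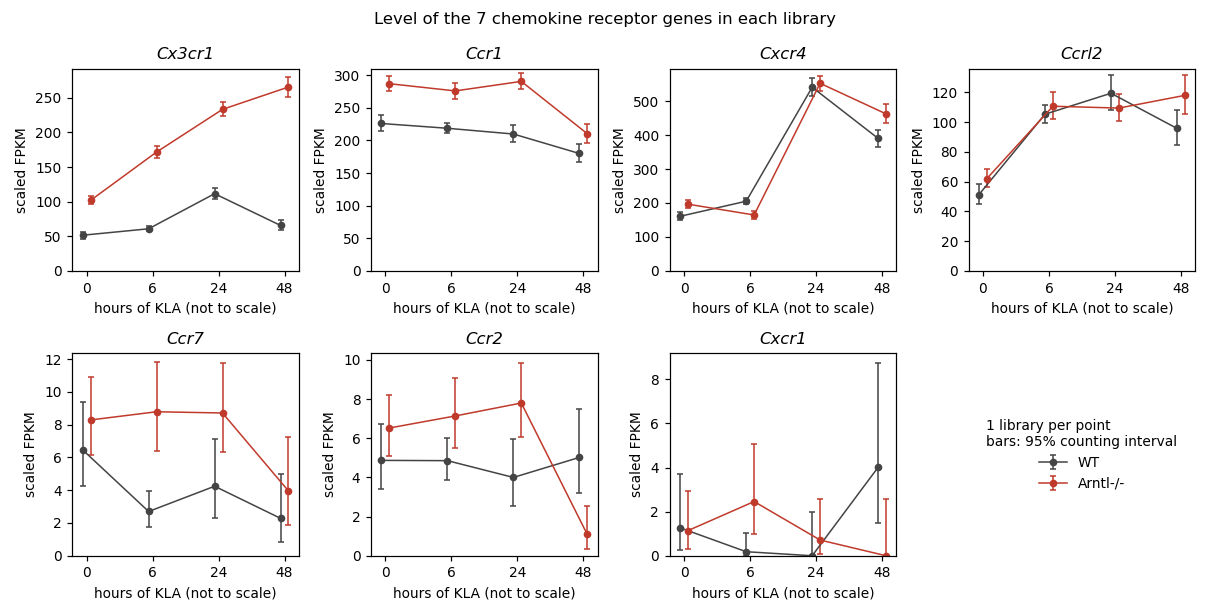
Scaled FPKM (vertical axis, from 0) of the 7 receptor genes at 0, 6, 24 and 48 h of KLA (horizontal axis, not to scale) in WT (grey) and Arntl-/- (red) macrophages, 1 library per point, with bars for the 95% counting interval. Cx3cr1 climbs to 266 in Arntl-/- cells and peaks at 111 in WT cells, while the curves of Cxcr4 and Ccrl2 lie close together.

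After KLA, Cx3cr1 rose in both genotypes by 24 h, 2.17-fold (1.92 to 2.45) in WT and 2.29-fold (2.13 to 2.46) in Arntl-/- cells. At 6 h the ratio to 0 h was 1.18 (1.05 to 1.33) in WT cells, under the 1.5-fold line, and 1.69 (1.56 to 1.82) in Arntl-/- cells. At 48 h it was 1.27 (1.10 to 1.48) and 2.61 (2.41 to 2.83). The 3 changes of a genotype share its 0 h library. Between 24 and 48 h, a comparison added after the values had been seen, the WT level fell by 0.76 on the log2 scale, to 0.588 (0.514 to 0.672) of its 24 h value, and the Arntl-/- level was 1.14 (1.06 to 1.22) times its own.

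Of the 8 other genes within 100 kb, 4 passed the filter (Csrnp1, Ttc21a, Slc25a38 and Rpsa), and their log2 ratios between the genotypes lay between -0.34 and 0.67 over the 4 times. Slc25a38, the nearest of these, had ratios of 0.57, 0.04, 0.54 and 0.06. At 6 h, Ttc21a (0.67) and Rpsa (0.61) were past the 1.5-fold line upward, and none of the other ratios was. Rpsa was at -0.34 at 0 h. No gene in the table overlapped any of the 7 receptor genes, and Cx3cr1 shared no stretch of 50 bases with another protein-coding transcript, in the reference transcripts used for that comparison. The 3 genes whose log2 levels followed it most closely over the 8 libraries were Col11a2 (Pearson's r = 0.94), Serpinb2 (0.93) and Uqcrc1 (0.93), a description over 8 points, with depth and time shared by all genes. With the values as deposited, none of the 3 was among the most alike.

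Ccr1 (NM_009912, 2827 bases of exon, chr9:123876959-123883525, minus strand), a receptor of several inflammatory CC chemokines on myeloid cells, was measured at 226, 219, 210 and 180 scaled FPKM in WT cells at the 4 times, and at 287, 276, 291 and 210 in Arntl-/- cells. The Arntl-/- library was the higher at each time, and 3 of the 4 lay above every WT library, whereas Arntl-/- at 48 h and WT at 24 h were level (ratio 1.002, 0.911 to 1.102). The 4 ratios of Arntl-/- to WT were 1.27 (1.19 to 1.36), 1.26 (1.19 to 1.34), 1.38 (1.28 to 1.495) and 1.17 (1.05 to 1.30), beyond counting error but under 1.5-fold each time. Of all genes that passed the filter, 7.94% were higher in the Arntl-/- library at all 4 times by any amount and 7.29% lower.

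KLA left Ccr1 under the 1.5-fold line in both genotypes. The lowest level of each was at 48 h, at 0.796 (0.725 to 0.874) of the 0 h level in WT cells and 0.733 (0.675 to 0.795) in Arntl-/- cells. The genes closest to Ccr1 over the 8 libraries were Thoc5 (r = 0.95), Ccnt2 (0.94) and Pcm1 (0.94), and Thoc5 and Ccnt2 were also so with the values as deposited.

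Cxcr4 (NM_009911, 1810 bases of exon, chr1:130484776-130488876, minus strand), the receptor of CXCL12, was the most abundant of the 7 per length of exon in both 24 h libraries. Its WT levels were 161, 205, 541 and 390.1 scaled FPKM, and its Arntl-/- levels 196, 165, 553 and 462. In both genotypes the 2 late libraries lay above the 2 early ones. From 0 to 24 h it rose 3.36-fold (3.07 to 3.70) in WT and 2.81-fold (2.62 to 3.02) in Arntl-/- cells, and at 48 h it was still 2.43-fold (2.19 to 2.69) and 2.35-fold (2.16 to 2.56) above 0 h.

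Between the genotypes, Cxcr4 was never 1.5-fold apart, with ratios of 1.22 (1.106 to 1.35), 0.802 (0.736 to 0.874), 1.02 (0.959 to 1.09) and 1.19 (1.09 to 1.29) at 0, 6, 24 and 48 h. The direction at 6 h was opposite to that at 0 and 48 h. From 0 to 6 h the WT level was 1.28 (1.16 to 1.4002) times its start and the Arntl-/- level 0.838 (0.763 to 0.920) times, both under the 1.5-fold line. Ccng2 (r = 0.99), Pik3r5 (0.99) and Snapc1 (0.98) were closest to it, and none of these was among the 3 closest with the values as deposited. Pik3r5, a regulatory subunit of the PI3-kinase that acts below G protein-coupled receptors, also belongs to the list of migration signalling genes.

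Ccrl2 (NM_017466, 2106 bases of exon, chr9:110957339-110959774, minus strand) had WT levels of 51.3, 105, 119 and 95.7 scaled FPKM and Arntl-/- levels of 62.0, 111, 109 and 118. All 6 treated libraries lay above both untreated ones. By 6 h it had risen 2.05-fold (1.78 to 2.38) in WT and 1.78-fold (1.57 to 2.03) in Arntl-/- cells, and it was called at each later time in both. At 48 h the ratio to 0 h was 1.87 (1.56 to 2.24) and 1.90 (1.64 to 2.21).

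Ccrl2 was never 1.5-fold apart between the genotypes. Over the 4 times the ratio of Arntl-/- to WT was 1.21 (1.03 to 1.43), 1.05 (0.949 to 1.16), 0.917 (0.807 to 1.04) and 1.23 (1.04 to 1.45), and at 6 h it lay on the other side of 1 with the values as deposited. Ptgs2 (r = 0.98), the inducible cyclooxygenase, Ltbp2 (0.98) and Gbp6 (0.97) were the genes closest to Ccrl2, also as deposited. Its nearest neighbour in the table, Ltf, a neutrophil granule gene 12069 bases away, had log2 ratios of 1.16, 1.25 and 0.53 between the genotypes at 0, 6 and 24 h and no read in either at 48 h.

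**Figure D2:**
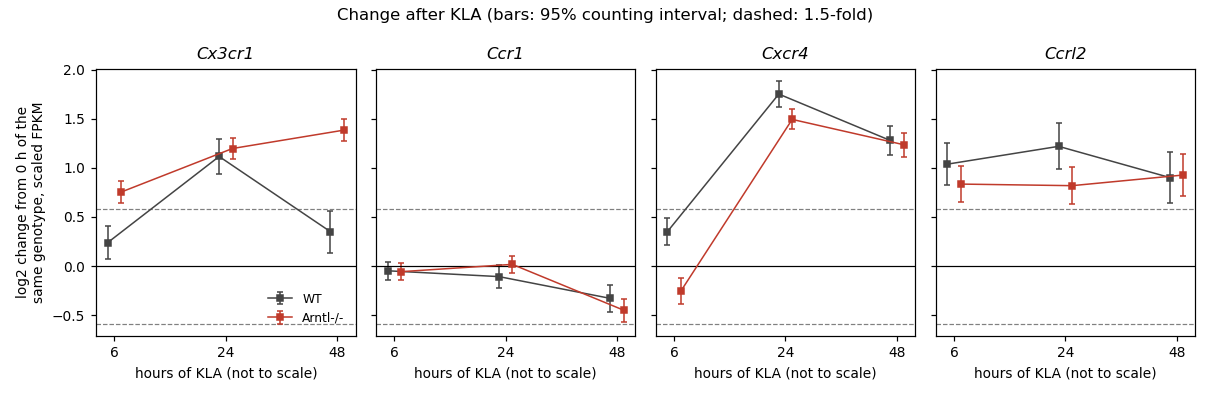
Log2 change from the 0 h library of the same genotype (vertical axis) at 6, 24 and 48 h of KLA (horizontal axis, not to scale) for the 4 receptor genes that passed the filter, in WT (grey) and Arntl-/- (red) cells, with 95% counting intervals and dashed lines at 1.5-fold. Ccrl2 is past the line from 6 h on and Cxcr4 from 24 h on in both genotypes, and Cx3cr1 at 48 h is past it only in the Arntl-/- cells, with log2 changes of 0.35 in WT and 1.38 in Arntl-/- cells.

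The other 3 receptors did not reach a mean of 50 scaled reads over the libraries. Ccr7 (NM_007719, chr11:99005513-99016391, minus strand) had 27, 26, 14 and 6 reads in WT and 51, 44, 43 and 10 in Arntl-/- cells, or 6.46, 2.70, 4.24 and 2.28 against 8.29, 8.79, 8.71 and 3.95 scaled FPKM. The Arntl-/- level was the higher at each time, with ratios of 1.28 (0.789 to 2.13), 3.25 (1.96 to 5.50), 2.05 (1.102 to 4.07) and 1.73 (0.570 to 5.80), of which those at 6 and 24 h were beyond counting error. In both genotypes the 48 h level was lower than the 0 h level, at 0.353 (0.119 to 0.873) of it in WT and 0.477 (0.216 to 0.9497) in Arntl-/- cells.

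Ccr2 (NM_009915, chr9:124016922-124023879, plus strand) was read 37, 85, 24 and 24 times in WT cells and 73, 65, 70 and 5 times in Arntl-/- cells. That gave 4.87, 4.85, 3.998 and 5.02 scaled FPKM in WT and 6.52, 7.14, 7.798 and 1.09 in Arntl-/- cells. The Arntl-/- library was thus above all WT libraries at 0, 6 and 24 h and below all of them at 48 h, where its ratio to WT was 0.216 (0.0645 to 0.579), resting on 5 reads. At 24 h the ratio was 1.95 (1.21 to 3.24). A small part of the Ccr2 sequence also occurs in other transcripts, so some of these few reads are uncertain.

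Cxcr1 (NM_178241, chr1:74238360-74241205, minus strand) had 3, 1, 0 and 6 reads in WT and 4, 7, 2 and 0 in Arntl-/- cells. Taking 3 reads as the floor, 5 of the 8 libraries were at or under it. The Arntl-/- library was the higher at 6 h, on 7 against 1 reads (ratio 13.4, 1.73 to 607), and the WT library at 48 h, on 6 against 0, while the counts at 0 and 24 h did not differ beyond counting error. In the libraries with no read, the floor of 3 reads corresponds to 1.60 scaled FPKM (WT at 24 h) and 2.09 (Arntl-/- at 48 h), and the exact upper limits were 1.97 and 2.56.

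Counted over the members, 4 of the 7 passed the filter and could be set beside the 10905 genes that did. Of these 4, Cx3cr1 alone was called higher in Arntl-/- cells at each time, and none was called lower. Among all genes that passed, 3.82% were called higher and 2.16% lower before KLA. After 6 h the shares were 2.32% higher and 3.02% lower, after 24 h 4.50% higher and 3.29% lower, and after 48 h 6.99% higher and 5.98% lower. With 1 of 4, nothing can be read from the share, and the contrast chose the gene. The balance of calls in all genes moved with the scaling. Of the calls at 0 h, 63.9% were higher ones, against 77.9% as deposited and 51.2% after correction for expression level, and these shares were 43.5, 13.2 and 54.2% at 6 h and 57.8, 66.4 and 45.2% at 24 h. Cx3cr1 was called higher at each time under both alternatives.

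Called higher at all 4 times were 15 genes (0.138%), with Cx3cr1 the 9th by mean log2 ratio (1.39), and called lower at all 4 were 12 (0.110%). By rank among the 10905 genes, Cx3cr1 was 104th from the highest at 0 h, 9th at 6 h, 104th at 24 h and 39th at 48 h. Every Arntl-/- library lay above every WT library for 83 genes (0.761%) and below for 65 (0.596%), and none of the 7 receptors was among either.

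**Figure D3:**
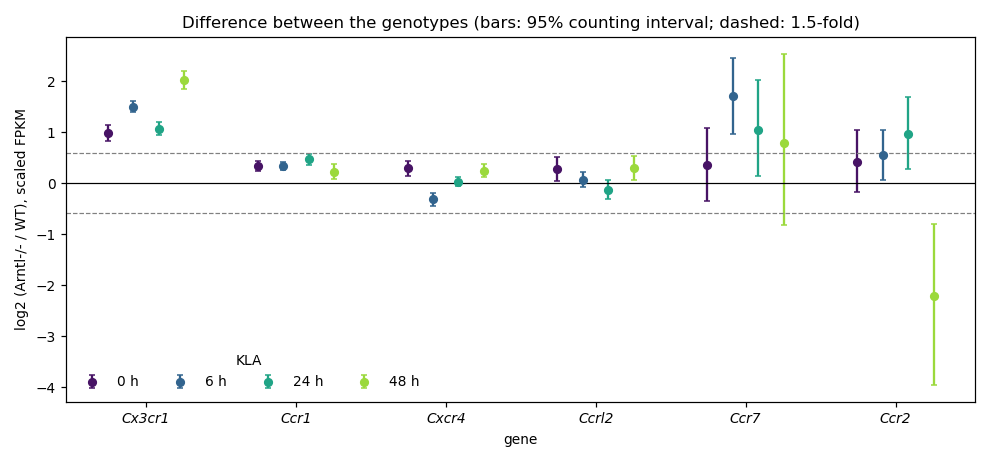
Log2 ratio of Arntl-/- to WT scaled FPKM without a pseudocount (vertical axis) for 6 of the receptor genes at 0, 6, 24 and 48 h of KLA (colours), with 95% counting intervals and dashed lines at 1.5-fold; Cxcr1 is left out because most of its libraries are at the floor. The 4 Cx3cr1 points lie above the upper line, those of Ccr1, Cxcr4 and Ccrl2 between the lines, and the intervals of Ccr7 and Ccr2 are wide.

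**Figure D4:**
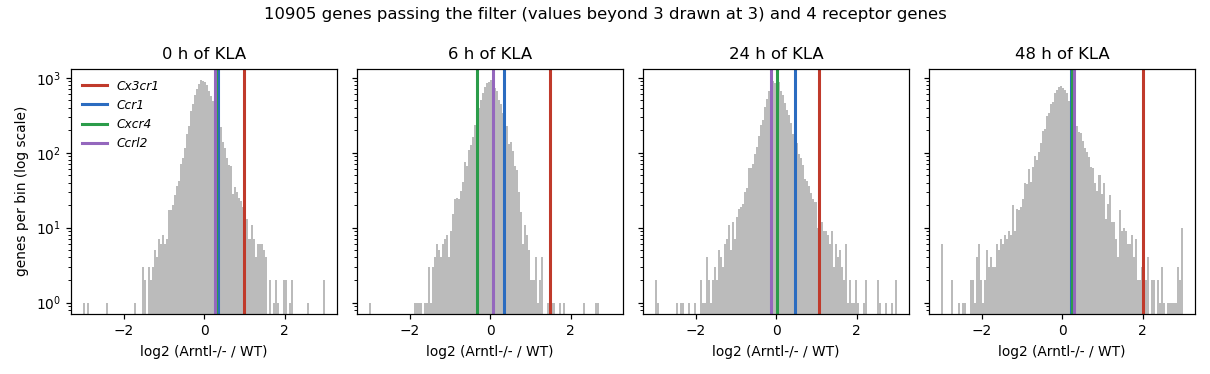
Number of genes (vertical log axis) by log2 ratio of Arntl-/- to WT (horizontal axis) for the 10905 genes that passed the filter (values beyond 3 drawn at 3), 1 panel per time, with vertical lines for 4 receptor genes. Cx3cr1 (red) stands at 0.98, 1.496, 1.065 and 2.02, in the upper tail of each panel, and Ccr1, Cxcr4 and Ccrl2 stand in the body.

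Following KLA, the members called higher than 0 h were Ccrl2 at 6 h in WT cells, where 5.91% of all genes were called higher and 3.66% lower. At 24 h in WT cells they were Cx3cr1, Ccrl2 and Cxcr4 (all genes 8.97% and 9.30%), and at 48 h Ccrl2 and Cxcr4 (13.5% and 15.7%). In Arntl-/- cells they were Cx3cr1 and Ccrl2 at 6 h (3.45% and 3.90%) and Cx3cr1, Ccrl2 and Cxcr4 at 24 h (8.02% and 9.89%) and at 48 h (15.6% and 17.6%). None of the 4 was called lower than 0 h in either genotype. From 24 to 48 h, Cx3cr1 was the 1 member called, lower in WT cells, where 8.40% of all genes were called higher and 10.3% lower, and none was called in Arntl-/- cells (7.59% and 9.60%). Here too the scaling moved the balance in all genes. In WT cells, 61.8% of the calls at 6 h, 46.3% of those at 48 h and 44.9% of those between 24 and 48 h were higher ones, against 90.3, 32.0 and 31.1% as deposited. For Arntl-/- cells the same shares were 46.9, 47.0 and 44.2%, against 34.9, 29.9 and 29.2% as deposited. Upper-quartile scaling moved them the other way, to 55.8, 51.2 and 51.2% in WT and to 50.8, 56.8 and 56.0% in Arntl-/- cells, and after the expression-level correction the Arntl-/- share at 6 h was 58.3%. Cx3cr1, Ccrl2 and Cxcr4 kept all of these calls under the 3 scalings.

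The lists below were written with earlier results of these data known. Beside the genes named by the rule given in the methods, list genes that were called or lay at or under the floor are named after their values were seen. Of 18 other chemokine receptors in the table, 3 passed the filter, and Ccr4, Ccr8 and Ackr1 were at or under the floor in every library. Cmklr1, a signalling receptor of chemerin, was called higher after KLA at 24 and 48 h in both genotypes and had log2 ratios from -0.39 to -0.09 between them. Ccr3, a receptor of eosinophil-attracting chemokines named here after its values were seen, was called higher in Arntl-/- cells at 0 and 24 h and lower at 6 h, with log2 ratios of 0.92, -0.96, 0.64 and -0.43 on 26 to 222 reads.

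Of the 18 ligands of the 7 receptors, 12 passed the filter. Called between the genotypes were Cxcl1 and Cxcl3 (higher) and Cxcl5 (lower) at 0 h, Cxcl1 (higher) and Cxcl5 (lower) at 6 h, none at 24 h, and Ccl2, Ccl7, Ccl12 and Cxcl1 (all lower) at 48 h. Of all genes that passed, 3.82, 2.32, 4.50 and 6.99% were called higher at the 4 times. Called lower were 2.16, 3.02, 3.29 and 5.98%. The list's medians were -0.13, 0.43, -0.05 and -0.36 on the log2 scale, beside -0.01, 0.01, 0.00 and -0.02 for all genes. Ccl2, the main ligand of CCR2, and Ccl6, a ligand of CCR1, were the most abundant. Ccl2 stood at 2415, 1846, 1214 and 1843 scaled FPKM in WT and at 2161, 2515, 996 and 1128 in Arntl-/- cells, the lowest of each at 24 h. Cx3cl1, which encodes the ligand of CX3CR1 and is named for that reason, did not pass the filter and had 6 to 130 reads per library, at 6.31, 8.48, 1.90 and 1.43 scaled FPKM in WT and 5.31, 9.41, 4.07 and 3.47 in Arntl-/- cells. Ccl21a had no read in any library.

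After KLA, the ligands moved in both directions. In WT cells 3, 5 and 6 of the 12 were called higher at 6, 24 and 48 h and 0, 4 and 1 lower, where all genes gave 5.91, 8.97 and 13.5% higher and 3.66, 9.30 and 15.7% lower. In Arntl-/- cells 4, 4 and 3 were called higher and 1, 4 and 4 lower, beside 3.45, 8.02 and 15.6% higher and 3.90, 9.89 and 17.6% lower of all genes. Ccl5 and Cxcl3 were called higher in both genotypes at all 3 times. At 24 h the same 4 ligands, Ccl2, Ccl4, Ccl7 and Ccl12, were called lower in each genotype.

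Of 9 G protein subunits that passed the filter, led by Gnai2 and Gnb2, only Gnb4 was called, higher at 24 h and lower at 48 h in Arntl-/- cells. None of 13 genes of receptor desensitisation, led by Arrb2 and Adrbk1, and none of 19 migration signalling genes, led by Arpc2 and Cdc42, was called between the genotypes at any time. Their log2 medians lay between -0.15 and 0.05 and between -0.06 and 0.09. Of all genes that passed, 3.82, 2.32, 4.50 and 6.99% were called higher in Arntl-/- cells at the 4 times. Called lower were 2.16, 3.02, 3.29 and 5.98%. Lists of 9, 13 and 19 genes are too short for counts this low to be told from those shares. After KLA, Plcb3, a phospholipase that receptor-released G protein subunits activate, was called higher and Elmo1, a partner of Dock2 in Rac activation, lower at 24 and 48 h in both genotypes. Plcb3, Elmo1 and the other genes of these lists called against 0 h are named after their values were seen. In WT cells, Gnb4 was lower at 24 h, and at 48 h Grk5 and Prex1 were higher and Rgs14, Rgs18 and Pik3cg lower. In Arntl-/- cells Rgs18, a regulator that switches G proteins off, was lower at all 3 times, joined by Rgs1 and Rgs2 at 24 h and by Rgs1, Rgs14 and Gnb4 at 48 h. Called higher there were Fgr at 24 h and Gnai2, Prex1 and Rac2 at 48 h. Of all genes, 5.91, 8.97 and 13.5% were called higher and 3.66, 9.30 and 15.7% lower at the 3 times in WT cells. In Arntl-/- cells the shares were 3.45, 8.02 and 15.6% higher and 3.90, 9.89 and 17.6% lower. With these shares, no pattern is read from the genes named. Whether the genotypes differ in these changes was not tested.

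Of 13 clock genes that passed the filter, 5 were called in 1 direction at all 4 times. Nr1d1 and Nr1d2 encode the repressors RevErb-alpha and RevErb-beta, which Bmal1 activates. Nr1d2 was measured at 70.6, 60.2, 95.4 and 90.2 scaled FPKM in WT and at 6.16, 3.23, 2.76 and 3.70 in Arntl-/- cells, and Nr1d1 at 44.5, 33.9, 26.2 and 37.0 against 19.6, 12.6, 10.0 and 16.7. Both lay lower in every Arntl-/- library. Arntl itself was the third, with log2 ratios of -1.30, -1.50, -0.92 and -0.93. Cry1 and Per2, repressors of the clock's activating arm, were higher at all 4 times, Cry1 by log2 ratios of 2.19, 1.73, 1.96 and 2.39 and Per2 by 1.43, 2.35, 1.69 and 1.18. Tef, the most abundant of the list, was not called at any time between the genotypes.

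Genes listed as markers of other cells also differed between the genotypes, and bulk RNA does not show which cells they came from. Of all genes that passed, 3.82, 2.32, 4.50 and 6.99% were called higher in Arntl-/- cells at the 4 times. Called lower were 2.16, 3.02, 3.29 and 5.98%. Of 6 Ly6C-high monocyte markers, 5 passed the filter, and Ly6c1, Ly6c2 and Vcan were called higher in Arntl-/- cells at 6, 24 and 48 h, but not at 0 h, with Fn1 lower at 24 h. The most abundant were Ly6a and Ly6c2, and Ly6c2 was 171, 129.5, 268 and 276 scaled FPKM in WT and 209, 249, 441 and 460.3 in Arntl-/- cells. The summed level of the list lay between 595 and 1385 in the WT libraries and between 783 and 1822 in the Arntl-/- ones. Of 10 neutrophil markers, 6 passed, and 3, 5, 2 and 1 were called higher at 0, 6, 24 and 48 h (all genes 3.82, 2.32, 4.50 and 6.99%), with sums from 1523 to 2893 and from 2232 to 3249, while Mpo and Elane were at or under the floor everywhere. Mmp8 and S100a8 led this list, and Ngp was called at all 4 times, with no read in WT cells at 48 h. Of 10 stromal markers 7 passed, led by Col1a1 and Col1a2, and 4, 3, 4 and 5 were called lower at 0, 6, 24 and 48 h. Col3a1, Postn and Sparc were lower at all 4 times. The list summed to 556 to 1450 in the WT libraries and 401 to 817 in the Arntl-/- ones. Dcn, also of this list, was called higher at 0 h. The part of such cells in the Cx3cr1 levels was not tested.

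These lists moved after KLA as well, with all genes at the shares given above. At 48 h against 0 h, macrophage markers were called higher in 7 of 11 (WT) and 8 of 11 (Arntl-/-), with Mrc1 lower in both, and their summed level lay between 17046 and 40738 in the WT and between 19268 and 36338 in the Arntl-/- libraries. Ly6C-high monocyte markers were called higher in 4 and 5 of 5, and stromal markers in 5 and 6 of 7. Of the neutrophil markers, S100a9, Ltf and Ngp were called lower and S100a8 and Mmp8 higher at 48 h in both genotypes. The part of these cells in the changes of Cx3cr1, Cxcr4 and Ccrl2 after KLA was not tested.

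**Figure D5:**
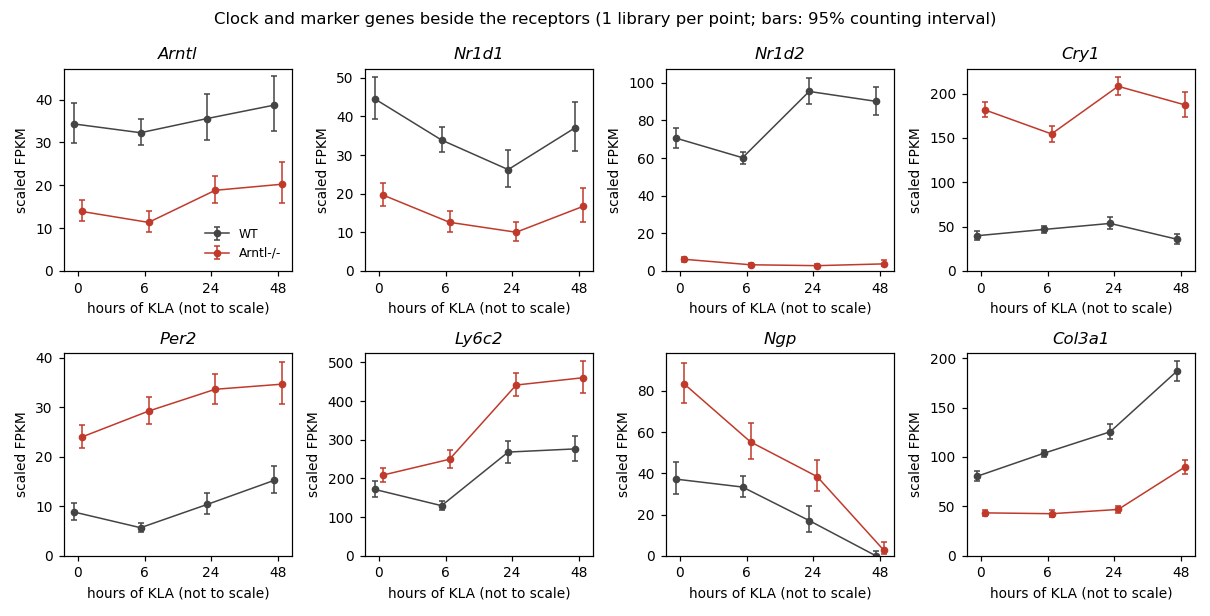
Scaled FPKM (vertical axis, from 0) of 8 genes that are not among the 7 receptors, at 0, 6, 24 and 48 h of KLA (horizontal axis, not to scale) in WT (grey) and Arntl-/- (red) cells, 1 library per point, with 95% counting intervals. At each time Arntl, Nr1d1, Nr1d2 and Col3a1 are lower and Cry1 and Per2 higher in the Arntl-/- library, and Ly6c2 and Ngp are higher at each time too.

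Of 10 dendritic cell markers, 2 passed the filter, Itgax, called lower in Arntl-/- cells at 6 h, and Fscn1, called lower at 48 h. Siglech and Cd209a were at or under the floor in every library, and the list summed to between 45.9 and 103 scaled FPKM in WT and between 42.7 and 108 in Arntl-/- cells. Of 11 T and NK cell markers, 7 were at or under the floor throughout, Cd3d, Cd3e and Cd3g among them, and the sums of 120.7 to 141 and 119 to 164 came mainly from Cd28 and Cd247, with Cd247 called higher at 48 h. B cell markers summed to between 21.2 and 37.0 in WT and between 28.6 and 61.0 in Arntl-/- cells, mainly through Cd79b, called higher at 24 and 48 h, then Cd79a. Mast cell and eosinophil markers, led by Cpa3 and Prg2, and erythroid markers, led by Alas2 and Hba-a1, summed to at most 3.36 in any library.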

How the data were processed

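PolyA RNA of 8 BMDM conditions was analysed, and the other 29 samples of the series (ChIP-seq) were not analysed here. The authors aligned paired-end reads to mm9 with STAR and used HOMER to count tags over the exons of RefSeq genes, both strands together, at most 3 tags per position and 1 transcript per gene (versions not given in the sources used here). Strand was not used, so a gene and an antisense transcript cannot be told apart. The deposited FPKM are scaled to 10000000 reads per library and divided by exon length in kb. The labels also name DESeq2 normalization of counts by the authors. In the table, 4 value columns (other times) match no sample and were not used, and 1 broken line was left out.

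The product of FPKM and length came in steps of 1 read, within 0.05 of a whole number for 99.95 to 100.00% of low values per library, which gave the reads behind each value. Size factors of the 8 libraries (median of ratios) then scaled the FPKM. Ratios and changes used log2(scaled FPKM + 0.1), which understates the change of low genes, and were called at 1.5-fold, a line the study draws. The background was the 10905 genes with a mean of at least 50 scaled reads. Level and ratio intervals are exact Poisson and conditional Poisson (95%), and 3 reads are the floor. Each condition has 1 library, so there is no test. Named genes are the 7 members, Arntl, the genes of each list at least 1.5-fold apart in 1 direction at all 4 times, the 2 most abundant of each list (1 gene is not reported here), and the 3 genes most alike to each member that passed the filter. Other list genes that were called or lay at or under the floor are also named, after their values were seen. The members and lists were chosen with earlier results of these data known. Results were recomputed with unscaled deposited values, upper-quartile scaling, a lowess correction for expression level (fraction 0.3), pseudocounts of 1 and 0.01, a 2-fold call, and filters of a mean of 10 scaled reads or of 100 at 1 or more WT times. The steps were run on simulated Poisson counts with known changes. These held no spread between cultures or mice, so they say nothing about that spread. Upstream windows were read from mm9, the build of the table. The software was matplotlib 3.10.9, statsmodels 0.14.6, scipy 1.17.1, pandas 2.3.3 and numpy 2.4.6, under Python 3.11.15.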

Additional observations from a re-analysis of the deposited data

Results flagged for a closer look

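The first result that stood out was Cx3cr1 from 24 to 48 h of KLA, where the libraries of the 2 genotypes moved in opposite directions, each beyond counting error. The log2 change was -0.76 in WT and 0.19 in Arntl-/- cells. Over the other scalings and pseudocounts the WT change lay between -0.87 and -0.70 and the Arntl-/- change between 0.08 and 0.28. The difference was not tested, since each condition has 1 library, and both 48 h libraries are the shallowest of their genotype.

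The second was Cxcr4 from 0 to 6 h, with a log2 change of 0.35 in WT and -0.25 in Arntl-/- cells, each beyond counting error and under the 1.5-fold line. Over the same alternatives the WT change lay between 0.33 and 0.51 and the Arntl-/- change between -0.32 and -0.24. This difference was not tested either, and the WT 6 h library is the deepest of the 8.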

How the results depend on the processing

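The numbers of members called among those that passed the filter kept within 1.5 times their value with upper-quartile scaling, after the correction for expression level, with pseudocounts of 1 and 0.01, and with the filter of 100 scaled reads at 1 or more WT times. With the values as deposited, 1 member (Ccr1) was called lower at 48 h than at 0 h in Arntl-/- cells, where none had been. At a 2-fold line, 0 members were called between the genotypes at 0 h, 1 (Cxcr4) in WT cells at 48 h, 0 in Arntl-/- cells at 6 h and 0 in WT cells from 24 to 48 h. Ccrl2 was then called at no time in Arntl-/- cells, which left 2 members (Cx3cr1 and Cxcr4) there at 24 and 48 h. With a mean of 10 scaled reads, which lets in Ccr2 and Ccr7, 2, 3 and 2 members were called higher in Arntl-/- cells at 6, 24 and 48 h and 1 lower at 48 h. Then 1 (Ccr7) was lower than 0 h at each later time of WT cells, 2 at 48 h of Arntl-/- cells, and 2 were lower from 24 to 48 h in each genotype. Of the log2 ratios of members recomputed, 388 stayed within their counting interval and 12 did not, and no called one changed sign. The number of all genes called moved by over 1.5 times in 46 cases and stayed within that in 146. Of the 46, 24 were at the 2-fold line, where the shares called lay between 0.220 and 7.97%, and 17 with the mean of 10 scaled reads, which raises the genes compared from 10905 to 12651, with shares between 4.38 and 12.7%. As deposited, the Arntl-/- cells at 6 h had 0.834% of genes higher and 5.47% lower than WT, and the WT cells at 6 h had 10.5% higher and 1.13% lower than at 0 h. After the expression-level correction 1.80% were lower in Arntl-/- cells at 6 h. As deposited the median of all genes moved by up to 0.18 on the log2 scale.

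Leaving out a library was not possible, with 1 per condition. The labels give no replicate numbers that pair samples. A fit of genotype with KLA time as a block was not run, since the 4 times are not replicates of 1 condition and Cx3cr1 was selected on this contrast. Depth limits Ccr2, Ccr7 and above all Cxcr1, whose values rest on 0 to 85 reads.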
